A study of Mus musculus with 14 samples.

Results

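The Dlk1-Meg3-Dio3 domain of mouse chromosome 12 is an imprinted cluster, in which genes are expressed from the chromosome of only 1 parent. It was described here through 6 genes: Dlk1, Meg3, Rian, Mirg, Dio3 and the neighbouring Begain. Peaks of H3K27me3 on chromosome 12 within 5 kb of the RefSeq gene body of any of them were taken as members, which gave 25 of the 74458 peaks counted in the series. Begain held 13 of these peaks, Dlk1 4, Meg3 3, Rian 2, Mirg 1 and Dio3 2, and 19 of the 25 overlapped a gene body. The peak farthest out that was still taken lay 4782 bp from Begain at 11.4 CPM (counts scaled to a common library size), and the nearest that was not taken lay 7375 bp from Dlk1 at 4.23 CPM.

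H3K27me3, the histone mark that Polycomb repressive complex adds to silent developmental genes, was profiled by Cut&Tag, in which an antibody guides the Tn5 transposase to the mark. The cells were mouse embryonic stem cells of the G4 line (129/Sv × C57BL/6 hybrid), grown with LIF on CD1 feeder cells, and each line was homozygous for a CRISPR-Cas9 deletion of a Polycomb loop anchor, none of which lies in this domain. The deletion took out the Hoxa cluster (3 libraries), Wnt6 (2 libraries) or Hmx1 (2 libraries), and no column for unedited cells was analysed here. In the study each deletion is called a clone, with more replicates than the libraries that the table holds for Wnt6 and Hmx1. The labels do not say whether the libraries came from separate cultures, so p-values measure only the spread between these libraries, and a difference between deletions and a difference between clones cannot be told apart. The reads of the 2 parental chromosomes were counted together, so no value below is allele-specific.

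In the mouse, Dlk1, Rtl1 and Dio3 are expressed from the paternal chromosome, and Meg3, Rian and Mirg are noncoding RNAs expressed from the maternal chromosome. A germline-methylated control region between Dlk1 and Meg3 sets this pattern. The noncoding RNAs carry small nucleolar RNAs and a large group of microRNAs, and the maternal transcripts of this domain are known to be silenced in some stem cell clones.

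Totals over all peaks ranged from 6016500 to 36563541 counts per library, and the smallest count of any member peak was 4, in replicate 1 of the Hmx1 deletion. The deleted genes were checked first. Peaks over the Hoxa genes summed to between 1.41 and 2.26 CPM in the Hoxa deletion and to between 1311 and 1486 CPM in the others. Wnt6 gave 13.9 to 14.0 CPM against 421 to 480 CPM, and Hmx1 gave 1.14 to 2.03 CPM against 455 to 547 CPM. As a check of the cell type, all 8 Polycomb targets listed for stem cells had peaks, with a median of 388 CPM per gene. The 6 of 8 stem cell genes with peaks had a median of 8.14 CPM. Those 6 genes summed to 270 to 324 CPM over the libraries, so the mark was uneven among them. Of 8 fibroblast genes that feeder cells express, 6 had peaks, with a median of 129 CPM per gene. They summed to 920 to 948 CPM in the Hoxa, 885 to 989 CPM in the Wnt6 and 974 to 997 CPM in the Hmx1 deletion. The part of feeder cells in the values below was not tested.

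The start sites of the protein-coding members lay under peaks and those of the maternal noncoding members did not. The RefSeq windows from 250 bases before to 50 after the start (GRCm38.p6, which is mm10) are shown for Dlk1 and Dio3, whose starts were covered by a peak, and for Meg3, whose start was not, with each CG dinucleotide in capitals because CG-rich sequence is where Polycomb marks are found in stem cells. All 3 are on the plus strand, at chr12:109452573-109452872, chr12:110278980-110279279 and chr12:109540746-109541045.
Dlk1: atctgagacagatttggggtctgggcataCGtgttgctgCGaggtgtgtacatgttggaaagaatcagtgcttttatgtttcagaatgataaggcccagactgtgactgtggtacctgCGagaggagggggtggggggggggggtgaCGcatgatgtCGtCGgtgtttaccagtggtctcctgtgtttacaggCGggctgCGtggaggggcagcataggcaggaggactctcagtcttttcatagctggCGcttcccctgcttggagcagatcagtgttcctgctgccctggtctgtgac
Dio3: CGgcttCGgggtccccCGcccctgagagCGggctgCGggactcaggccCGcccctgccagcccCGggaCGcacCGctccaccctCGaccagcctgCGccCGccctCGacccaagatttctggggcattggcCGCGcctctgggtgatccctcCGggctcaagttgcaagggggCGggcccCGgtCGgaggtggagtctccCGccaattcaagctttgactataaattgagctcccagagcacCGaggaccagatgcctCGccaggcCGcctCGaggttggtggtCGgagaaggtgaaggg
Meg3: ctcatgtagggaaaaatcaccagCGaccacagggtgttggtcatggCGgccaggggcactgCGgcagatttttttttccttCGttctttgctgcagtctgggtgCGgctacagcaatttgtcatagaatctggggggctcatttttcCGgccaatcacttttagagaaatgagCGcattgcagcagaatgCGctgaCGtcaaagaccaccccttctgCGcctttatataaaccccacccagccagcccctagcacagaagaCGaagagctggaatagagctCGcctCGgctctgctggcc

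The Dio3 window held 25 CG dinucleotides, the Meg3 window 13 and the Dlk1 window 9, against a median of 7 over all 32851 promoter windows. The 5 windows of Begain held 34 to 46 and all lay under a peak. The Rian window held 0 and the Mirg window 10, and their nearest peaks were 5911 and 14684 bp away. The Meg3 window at the outer start lay 1804 bp from a peak. Over all promoter windows 43.9% overlapped a peak, with a median of 21 CG dinucleotides in those that did and 3 in those that did not. The letters TGCCGC, the hexamer known to be bound by the imprinting factor ZFP57, were searched on both strands. They occurred in 11.6% of all windows and, among the 11 member windows, only in that of Meg3 at its outer start, which says nothing of binding.

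The level of H3K27me3 divided the 6 members into strongly marked protein-coding genes and less marked noncoding RNAs. Other genes of the domain did not follow this division. The protein-coding Rtl1 had 3.05 CPM, and the noncoding Dio3os, whose window holds the strongest Dio3 peak, had 451 CPM. Among all peaks ranked by CPM per kb, the Rian peaks stood at percentiles 84.0 and 70.3 and the Mirg peak at 61.6. The 3 Meg3 peaks stood at 63.8, 37.3 and 4.90. Summed over the peaks within 5 kb and divided by the length of those peaks, Dio3 had 68.3, Dlk1 54.5 and Begain 52.1 CPM per kb of peak, against 17.9 for Rian, 9.63 for Mirg and 7.49 for Meg3. Peaks filled 53.2% of the gene body with its 5 kb margins at Dio3, 35.9% at Begain and 24.1% at Dlk1, and 3.74%, 2.08% and 1.93% at Meg3, Mirg and Rian.

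**Figure D1:**
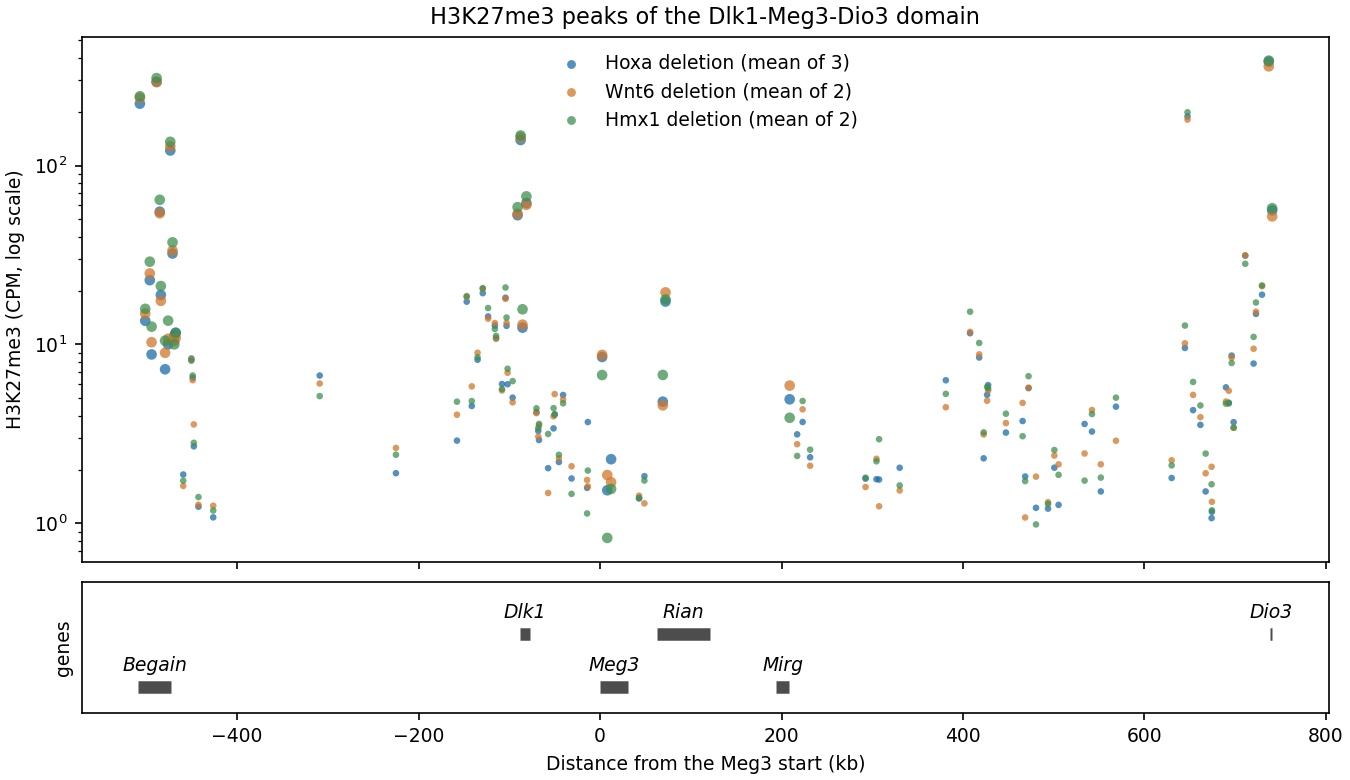
Mean H3K27me3 of each peak in CPM (log axis) against its distance from the Meg3 start in kb, by deletion, with the 6 genes drawn to scale below. Large points are the 25 member peaks and small points the 75 other peaks of the domain, and the points of the 3 deletions nearly coincide at the strong peaks over Begain, Dlk1 and Dio3.

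Dio3 encodes an iodothyronine deiodinase that inactivates thyroid hormone. Its main peak, at chr12:110275258-110280739, covered the starts of Dio3 and of its antisense neighbour Dio3os and was the widest of all 74458 peaks at 5481 bp. It ranked 10 by level, at 375.7 CPM on average. The level was 412, 361 and 368 CPM in the Hoxa, 371 and 346 CPM in the Wnt6 and 367 and 405 CPM in the Hmx1 libraries. The 3 deletions overlapped, and the peak did not pass the test among them (adjusted p = 0.743, edgeR). The second peak, 226 bp downstream of the gene, had 56.9, 53.7 and 57.9 CPM in the Hoxa, 52.0 and 52.0 CPM in the Wnt6 and 56.1 and 59.4 CPM in the Hmx1 libraries, where both Wnt6 values were the lowest (adjusted p = 0.678).

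Dlk1, a transmembrane protein with EGF-like repeats that acts on adipocyte and neural progenitors, had its main peak at chr12:109452210-109454669 over the gene start. It measured 150.3, 134.8 and 131.6 CPM in the Hoxa, 154.5 and 133.2 CPM in the Wnt6 and 140.1 and 154.3 CPM in the Hmx1 libraries, with all 3 deletions overlapping (adjusted p = 0.834). The Dlk1 peak with the smallest p among deletions, at chr12:109455371-109455643 in the gene body, had 13.1, 11.3 and 12.9 CPM, then 13.6 and 12.2 CPM, and 16.7 and 14.7 CPM in the same order. Both Hmx1 values were the highest, at an adjusted p of 0.396.

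Begain encodes a protein of the postsynaptic density and had the most peaks. Its strongest, at chr12:109049810-109054642, ranked 54 by level and 7 by width in the table. It held 302, 297 and 281 CPM in the Hoxa, 305 and 280 CPM in the Wnt6 and 288 and 329 CPM in the Hmx1 libraries, which overlapped (adjusted p = 0.841). The peak with the smallest p, at chr12:109046560-109046855, held 8.58, 8.79 and 9.02 CPM, then 8.64 and 11.9 CPM, and 13.9 and 11.3 CPM. The adjusted p of 0.206 was the smallest of all 25 member peaks in the test among deletions.

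Meg3, a noncoding RNA of the maternal chromosome, had 3 peaks inside its body and none over its start. The strongest, at chr12:109542849-109543646, held 7.29, 8.52 and 9.73 CPM in the Hoxa, 10.5 and 7.0 CPM in the Wnt6 and 6.93 and 6.57 CPM in the Hmx1 libraries. Both Hmx1 values were the lowest, at an adjusted p of 0.521. The peak at chr12:109548808-109549032, which had the smallest p, held 2.0, 1.57 and 1.03 CPM, then 2.16 and 1.57 CPM, and 0.68 and 0.98 CPM. It also had its lowest values in the Hmx1 deletion (adjusted p = 0.441), and the count of 4 in replicate 1 of that deletion was here.

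Rian, the host of small nucleolar RNAs, had its stronger peak at chr12:109612709-109613578 with 19.04, 16.6 and 16.5 CPM in the Hoxa, 20.8 and 18.3 CPM in the Wnt6 and 16.9 and 18.8 CPM in the Hmx1 libraries, which overlapped (adjusted p = 0.768). Its other peak, at chr12:109609905-109610347, held 4.82, 4.85 and 4.70 CPM, then 3.70 and 5.44 CPM, and 7.10 and 6.42 CPM. Both Hmx1 values were the highest there, without passing the test (adjusted p = 0.332). Mirg, the host of many microRNAs, had a single peak, 256 bp past its end, with 4.35, 5.31 and 5.16 CPM in the Hoxa, 6.38 and 5.41 CPM in the Wnt6 and 3.38 and 4.41 CPM in the Hmx1 libraries. Both Wnt6 values were the highest (adjusted p = 0.462). With 2 libraries in a group, both values readily come out highest or lowest, and several of these peaks were named for their smallest p. How often this order occurs over all peaks was not counted.

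**Figure D2:**
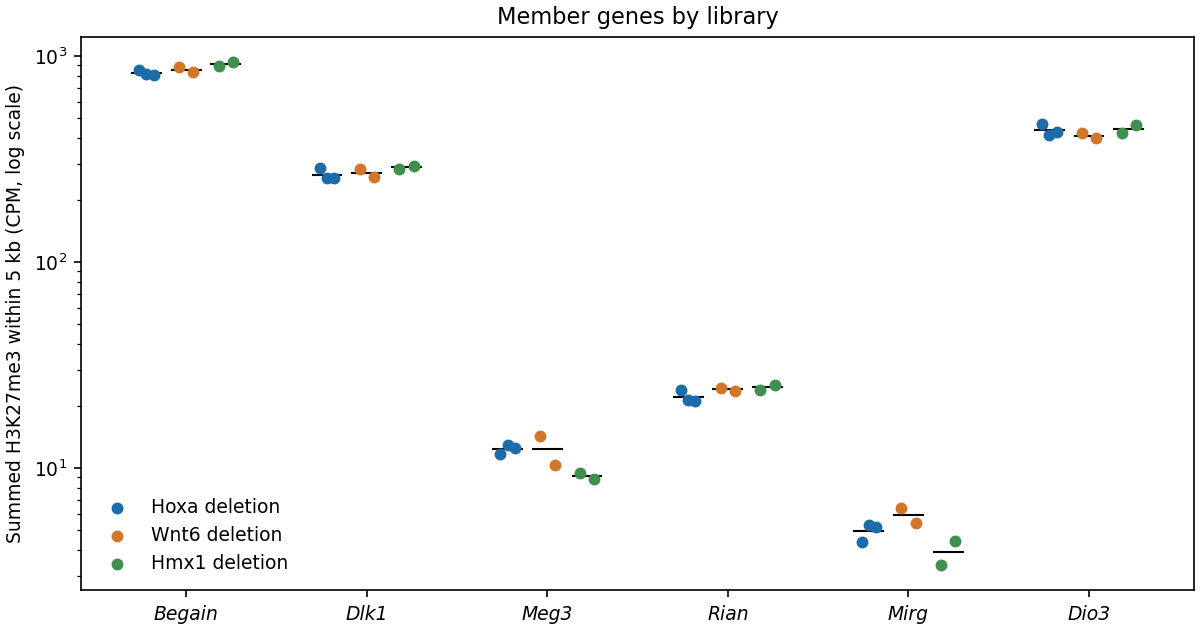
H3K27me3 summed over the peaks within 5 kb of each member gene, in CPM on a log axis, with a point for each library and a line at the mean of each deletion. Begain lies between 811 and 936 CPM and Mirg between 3.38 and 6.38 CPM, and the order of the genes is the same in every library.

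No member peak differed between the deletions by the study's criteria, which ask for a log2 fold change beyond 1 in either direction and, after Benjamini-Hochberg adjustment, a p under 0.05. In edgeR's quasi-likelihood test 0 of 25 were called for the Hoxa deletion against the mean of the others, where 1.65% of all tested peaks were called. The count was 0 of 25 for the Wnt6 deletion, where 0.177% of all peaks were called, and 0 of 25 for the Hmx1 deletion, where 0.293% were. It was also 0 of 25 in the test among the 3 deletions, against 2.04% of all peaks, and DESeq2 called 0 in each. At shares this low, 25 peaks with no calls do not stand apart from the table. At an unadjusted p under 0.05 there were 3 member peaks for Hoxa (21.4% of all peaks), 0 for Wnt6 (8.19%), 6 for Hmx1 (12%) and 4 among the 3 deletions (18.2%).

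The fold changes were small and, for the strong peaks, narrowly bounded. The median log2 fold change of the member peaks was -0.10 for the Hoxa deletion, -0.04 for the Wnt6 deletion and 0.12 for the Hmx1 deletion, beside 0.0008, 0.0090 and 0.0009 over all tested peaks. For the Hoxa deletion 17 of 25 lay below 0, beside 37131 of all 74441 tested peaks. For the Hmx1 deletion 18 of 25 lay above 0, beside 37313 of all tested peaks. Begain alone gave 11 of those 17 and 11 of those 18 from its 13 peaks, and neighbouring peaks of 1 gene are not independent. The contrasts share libraries, so a shift of 1 deletion enters the others. The 75 other peaks of the domain had medians of -0.11, -0.01 and 0.09 in the same order, and the 3107 peaks of chromosome 12 outside it 0.01, -0.02 and 0.01. By level, for the Hmx1 deletion the 4891 peaks of at least 50 CPM had a median of 0.07 and the 9 members among them 0.10, and the 12272 peaks of 10 to 50 CPM had -0.0036 and the 10 members among them 0.21. For the Hoxa deletion the same medians were -0.01 and -0.07, then 0.03 and -0.16. The medians of all peaks in these ranges thus lay nearer 0 than those of the members, and most members of 10 to 50 CPM were Begain peaks. Whether the members differ from other peaks of their level was not tested.

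**Figure D3:**
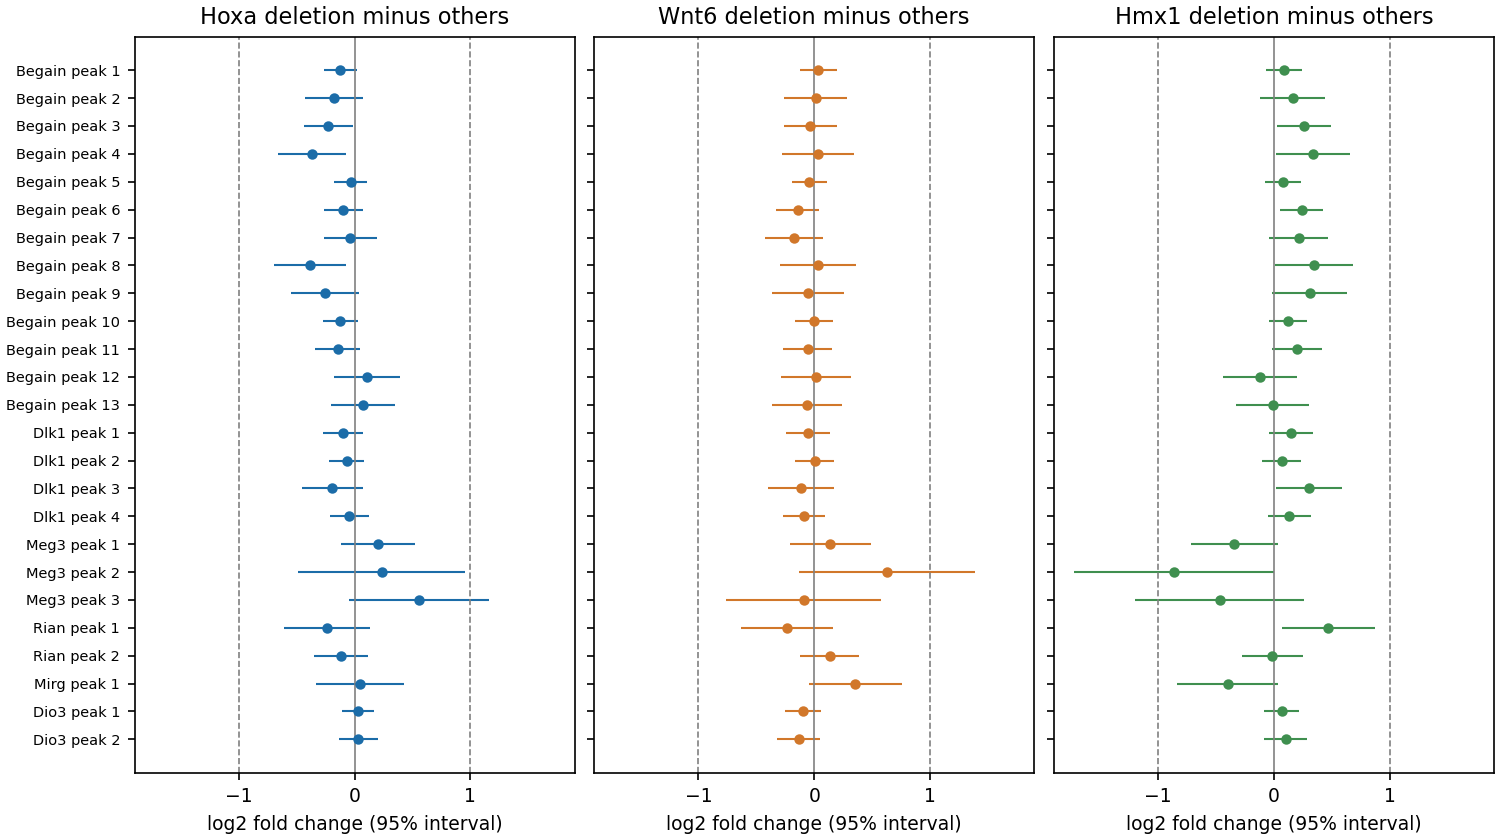
Fitted log2 fold change with its 95% interval for each of the 25 member peaks, numbered along the chromosome within each gene, for each deletion minus the mean of the others. Dashed lines mark the fold change minimum of 1, and every point lies inside them, while the intervals of 2 of the 3 Meg3 peaks reach past a line in at least 1 comparison.

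The 95% interval of the fold change lay wholly between -1 and 1 for 24 of 25 member peaks in the Hoxa, 24 in the Wnt6 and 23 in the Hmx1 comparison. The exceptions were Meg3 peaks, at chr12:109552892-109553395 for Hoxa and Hmx1 and at chr12:109548808-109549032 for Wnt6 and Hmx1, where a change of that size was not excluded.

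Counts summed per gene gave the same calls, 0 of 6 members in each comparison, where 0.756% of 23677 genes were called for Hoxa, 0.169% for Wnt6, 0.27% for Hmx1 and 1.25% among the 3 deletions. DESeq2 also called 0 of 6 in each. At an unadjusted p under 0.05 there were 2 member genes for Hoxa (31.1% of all genes), 0 for Wnt6 (13.7%), 3 for Hmx1 (23.4%) and 3 among the 3 deletions (30.8%). For Begain the sums were 859, 815 and 811 CPM in the Hoxa, 879 and 833 CPM in the Wnt6 and 891 and 936 CPM in the Hmx1 libraries, with both Hmx1 values above all others. Its log2 fold change was -0.14 for Hoxa (95% interval -0.22 to -0.06) and 0.14 for Hmx1 (0.05 to 0.23), far under the fold minimum although the adjusted p was 0.00906 and 0.0310 in edgeR. Those p-values depended on how the gene sums were scaled. With the scaling factors of the peak table in place of those of the gene table, a setting chosen after the first values had been seen, the adjusted p was 0.247 for Hoxa and 0.257 for Hmx1. With offsets that depend on abundance, also chosen afterwards, the fold change was -0.02 for Hoxa (adjusted p = 0.765) and turned to -0.03 for Hmx1 (adjusted p = 0.704). No direction is therefore given for Begain.

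Dlk1 summed to 285, 256 and 256 CPM in the Hoxa, 284 and 258 CPM in the Wnt6 and 284 and 294 CPM in the Hmx1 libraries, and the deletions overlapped. Its log2 fold change was -0.12 for Hoxa (adjusted p = 0.0686) and 0.13 for Hmx1 (adjusted p = 0.103). With the factors of the peak table these were -0.08 (adjusted p = 0.437) and 0.11 (adjusted p = 0.359), and with the abundance offsets -0.04 (adjusted p = 0.451) and 0.04 (adjusted p = 0.644). Dio3 summed to 469, 415 and 426 CPM, then 423 and 398 CPM, and 423 and 464 CPM. Its fold change was within 0.1 of 0 in each comparison of the main fit. The sign turned with the scaling for Hoxa and Hmx1 but not for Wnt6. The fold change for Hoxa was -0.01, then 0.03 with the factors of the peak table and 0.08 with the abundance offsets (adjusted p = 0.0824). In the same order it was 0.09, 0.07 and -0.03 for Hmx1. For Wnt6 it was -0.08, -0.10 and -0.05 (adjusted p = 0.525, 0.556 and 0.573, edgeR). No direction is given for Dio3.

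Among the noncoding RNAs, Meg3 summed to 11.6, 12.9 and 12.4 CPM in the Hoxa, 14.3 and 10.3 CPM in the Wnt6 and 9.46 and 8.82 CPM in the Hmx1 libraries. Both Hmx1 values lay below all others. The log2 fold change for the Hmx1 deletion was -0.41 (95% interval -0.73 to -0.09), with an adjusted p of 0.0963, 0.104 with the factors of the peak table and 0.178 with the abundance offsets. Mirg had its lowest value in the Hmx1 and its highest in the Wnt6 deletion, with log2 fold changes of -0.38 (adjusted p = 0.321) and 0.38 (adjusted p = 0.435). Rian gave -0.19, 0.07 and 0.12 for Hoxa, Wnt6 and Hmx1, with adjusted p-values of 0.173, 0.858 and 0.559.

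Over all 25 member peaks the domain summed to 1653, 1526 and 1531 CPM in the Hoxa, 1631 and 1529 CPM in the Wnt6 and 1635 and 1732 CPM in the Hmx1 libraries. The highest was 1.14 times the lowest. The same ratio was 1.15 for Begain and Dlk1, 1.18 for Dio3, 1.19 for Rian, 1.62 for Meg3 and 1.89 for Mirg. The 19 member peaks of at least 10 CPM had a median coefficient of variation of 8.26% over the 7 libraries. For all 17163 tested peaks of at least 10 CPM it was 11.1%. These sets are not alike in level. At least 50 CPM was held by 9 of the members and 4891 of all peaks, and 10 to 50 CPM by 10 and 12272. Whether the members vary less than peaks of their own level was not tested.

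Of the domain from the start of Begain to the end of Dio3, 1249 kb in all, 99 peaks were counted (24 members and 75 others, the second Dio3 peak lying just past the end), or 7.93 per 100 kb against 2.75 per 100 kb between the first and last peak of chromosome 12. The 75 peaks not at a member included 21 between Begain and Dlk1, 11 between Dlk1 and Meg3, 2 between Meg3 and Rian, 0 between Rian and Mirg and 41 between Mirg and Dio3. The strongest of them, named here after its values were seen, lay at chr12:110187349-110189539, 89691 bp from Dio3. It held 192.4, 183.3 and 188.8 CPM in the Hoxa, 187.9 and 173.3 CPM in the Wnt6 and 196.9 and 199.8 CPM in the Hmx1 libraries, more than the peak over the start of Dlk1, with no call among the deletions (adjusted p = 0.674).

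Of the 75 other peaks of the domain, 1 was called among the 3 deletions, or 1.33%, a share not above the 2.04% of all tested peaks. It was at chr12:109527364-109527676, between Dlk1 and Meg3 and 13320 bp before the Meg3 gene body, and is named because of its values. It held 3.53, 4.05 and 3.48 CPM in the Hoxa, 1.13 and 2.09 CPM in the Wnt6 and 1.35 and 2.60 CPM in the Hmx1 libraries, so that all 3 Hoxa values lay above the other 4. The largest log2 fold change between deletions was 1.07 (adjusted p = 0.0323, edgeR). For Hoxa against the others it was 0.91 (95% interval 0.40 to 1.41, adjusted p = 0.0120), below the fold minimum. The counts behind it were low, from 8 in replicate 1 of the Hmx1 deletion to 106 in replicate 2 of the Hoxa deletion. The peak next to it, at chr12:109526550-109526833, held 1.502 CPM on average and was not called (adjusted p = 0.740).

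RefSeq places 58 microRNA hairpins between Begain and Dio3, 57 of them between the start of Meg3 and the end of Mirg, and 1 of the 58 overlapped a peak, or 1.72%. The hairpin that overlapped was Mir1247, under the main Dio3 peak and outside the stretch from Meg3 to Mirg. Peaks covered 5.72% of the bases from Begain to Dio3, the stretch that holds the 58 hairpins. They covered 1.61% from the start of Meg3 to the end of Mirg, and 1.77% between the first and last peak of chromosome 12. Of all 1005 hairpins in the RefSeq table on chromosomes with peaks, 124 overlapped a peak, or 12.3%, and the difference was not tested. The median distance to the nearest peak was 12889 bp. All 14 hairpins of the list set for this domain were found, and 0 of these overlapped a peak, at distances of 464 to 40589 bp. The longest stretch without a peak ran for 136.1 kb from within Rian to just past Mirg and held 39 hairpins, and 6.24% of the 3206 gaps between peaks on chromosome 12 were at least that long. Mature microRNAs that share a seed (bases 2 to 8, in capitals) are shown for 3 of the 9 seeds common to more than 1 name, because they come from this stretch without peaks.
miR-379-5p: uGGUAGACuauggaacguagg
miR-1193-5p: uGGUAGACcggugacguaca
miR-410-5p: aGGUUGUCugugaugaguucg
miR-494-5p: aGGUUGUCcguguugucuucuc
miR-376b-5p: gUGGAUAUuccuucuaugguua
miR-376c-5p: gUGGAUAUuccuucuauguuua

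Among the genes in and beside the domain, 11 of 13 had tested peaks, and 0 were called in any comparison. Beside the shares of all genes given above, from 0.169% to 1.25%, no calls among 11 genes do not stand apart. Dio3os, whose window holds the Dio3 peak, had a log2 fold change of -0.02, -0.07 and 0.09 for Hoxa, Wnt6 and Hmx1. Rtl1, a paternally expressed gene derived from a retrotransposon, had 3.05 CPM and fold changes of 0.10, -0.14 and 0.04.

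Of 47 imprinted genes listed on other chromosomes, 44 were tested, and 5 were called among the 3 deletions, where 1.25% of all genes were. For Hoxa 4 were called (1 higher and 3 lower), beside 0.756% of all genes. For Wnt6 4 were called (all higher), beside 0.169%, and for Hmx1 4 (3 higher and 1 lower), beside 0.27%. Each contrast is with the mean of the other deletions, so a gene low in 1 deletion can count as higher in the others. H19 and Mest were called higher for both Wnt6 and Hmx1, and Nap1l5 for both Hoxa and Wnt6. These counts are therefore not separate gains of the mark. H19, a maternally expressed noncoding RNA, held 13.6, 14.8 and 12.8 CPM in the Hoxa, 66.7 and 61.5 CPM in the Wnt6 and 61.2 and 64.6 CPM in the Hmx1 libraries, a log2 fold change of -2.24 ± 0.09 (SE) for Hoxa. Mest encodes a hydrolase-like protein and is expressed from the paternal chromosome. It was lower by 3.29 and the noncoding RNA Peg13 by 4.19 on the log2 scale in the same comparison. Nap1l5, a paternally expressed gene within Herc3, held 0.338 and 0.315 CPM in the Hmx1 deletion and 17.6 to 29.2 CPM elsewhere, a log2 fold change of -6.04 ± 0.27 (SE). Herc3, also called among the 3 deletions, held 25.0 and 24.5 CPM in the Hmx1 deletion and 42.7 to 56.7 CPM elsewhere. The Nap1l5 peak counts for Herc3 too, so the calls of these genes are not separate results. Whether these genes differ from the domain in their variation was not tested, and the values are given side by side.

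**Figure D4:**
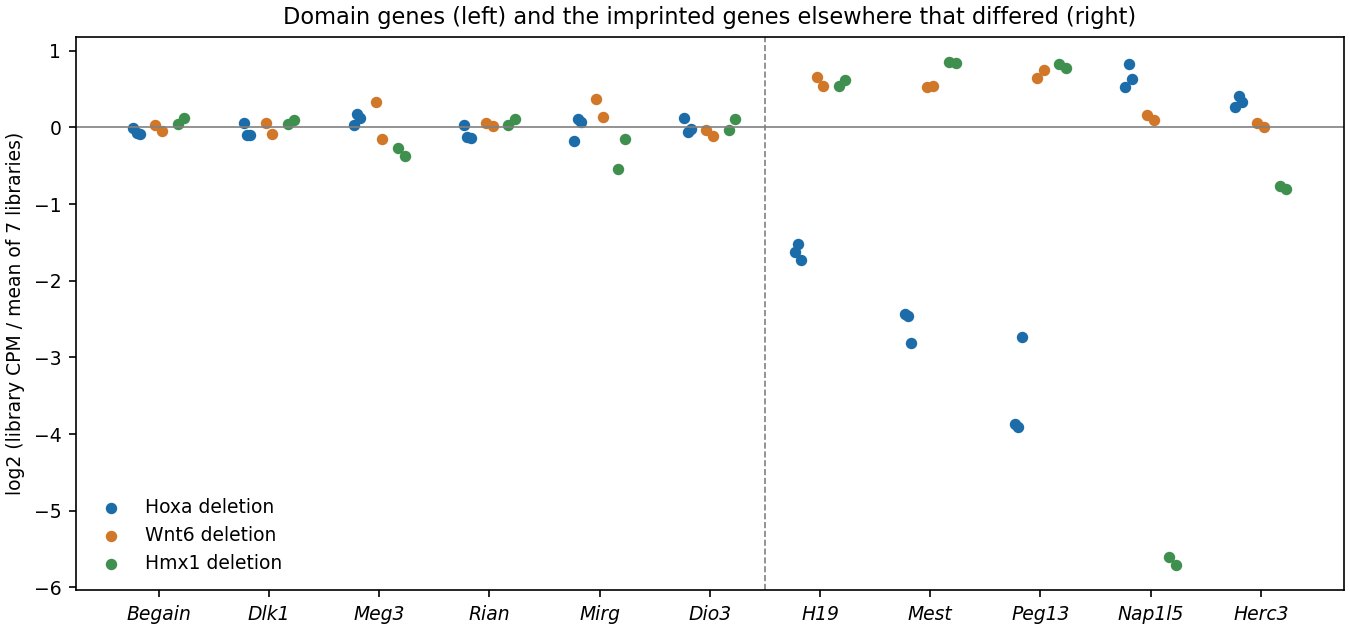
Log2 of each library's summed CPM over the mean of the 7 libraries, for the 6 domain genes (left of the dashed line) and the 5 imprinted genes elsewhere that were called among the deletions (right), which were selected for differing. Among the domain genes Mirg and Meg3 spread the most, with the highest library 1.89 and 1.62 times the lowest, and the other 4 stay within 1.19 times. H19, Mest and Peg13 are low in the Hoxa and Nap1l5 in the Hmx1 libraries. The sum of Herc3 includes the Nap1l5 peak.

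The genes whose summed signal followed the domain most closely were described over the 7 libraries. Among 13539 genes of at least 10 CPM that lie over 2 Mb away or on another chromosome, Plscr4 (Pearson r = 0.993), Adam12 (0.992), Tfap2b (0.989), Dok6 (0.980) and Gabrb1 (0.977) had the highest correlation of log2 CPM with the sum of the member peaks. The points share library and depth, the domain itself spans only 0.18 on the log2 scale, and with so many genes and 7 points high values are reached readily.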

How the data were processed

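The authors deposited whole-number counts of H3K27me3 Cut&Tag signal over a shared peak list, without normalization, for 7 libraries. The 7 IgG libraries were not analysed here. The submitters' processing notes name Trimmomatic, Bowtie2, SAMtools, Picard, MACS2, deepTools and mm10, without versions. Whether reads or fragments were counted, and how the list was made from the libraries, is not given in the sources used here, and a list favours regions strong in the libraries it was called on. Groups and replicate numbers came from the sample titles.

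The members and gene lists were chosen with earlier results of these data known. Peaks were filtered with filterByExpr, which removed 17, scaled by TMM factors and fitted with edgeR 4.0.16 (glmQLFit, glmQLFTest, R 4.3.3) with a term for each deletion. Each deletion was contrasted with the mean of the others, and an F test with 2 degrees of freedom compared all 3. The study used DESeq2, which was run here as an alternative (1.42.0). The same fit was made on counts summed per RefSeq gene (GRCm38.p6) over peaks within 5 kb, where a peak near several genes counts for each. Calls needed a log2 fold change beyond 1 in either direction together with p under 0.05 after Benjamini-Hochberg adjustment over all features. Intervals are at 95% and, like counts from PCR-amplified libraries in general, cover less than all error. CPM values use the TMM factors of the peak table, so a gene's fold change, which uses factors of the gene table, can differ slightly from its CPM. During the work the gene sums were refitted with the factors of the peak table after the first results had been seen. Because the planned fit scales the gene table itself, that refit is reported only as an added alternative, as are the abundance offsets.

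Peaks named for a gene are its strongest and that with the smallest p among deletions. Peak starts are as deposited, and the convention (0 or 1) is not stated. The procedure was tested on simulated counts. Sequences come from RefSeq tables, since no genome sequence was used. Plots were drawn with matplotlib 3.10.9.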

Additional observations from a re-analysis of the deposited data

How the results depend on the processing

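The counts of called members stayed at 0 under every alternative run, with these exceptions. With no fold change minimum, 1 member gene (Begain) passed for Hoxa, for Hmx1 and among the 3 deletions, and with the scaling factors of the peak table added to that setting 0 passed. That scaling and the abundance offsets were chosen after seeing the data. With all peaks of the domain counted, 1 peak was called among the 3 deletions, the one between Dlk1 and Meg3, and this setting gives no value per gene. Peaks overlapping a gene body gave no value for Mirg. The median log2 fold change of the member peaks moved to -0.048 for Hoxa against Wnt6 alone and -0.14 against Hmx1 alone, to 0.048 for Wnt6 against Hoxa alone and -0.11 against Hmx1 alone, to -0.14 for Hoxa with counts downsampled to the smallest library, and to 0.078 for Hmx1 with the abundance offsets. The cause was not tested, except that each comparison with a single deletion uses fewer libraries. Leaving out each library in turn, it ranged from -0.13 to -0.06 for Hoxa, from -0.056 to 0.00067 for Wnt6 (the highest without Hmx1 replicate 1) and from 0.065 (without Hmx1 replicate 2) to 0.15 for Hmx1. Of 447 fold changes of member genes under the alternatives, 44 had the opposite sign to the reported value. As 0 member genes were called in the main fit, there was no call that could be reversed. The lowest count of a member peak was 4, at a Meg3 peak.

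Deviations of libraries with the same replicate number correlated at -0.04 to 0.08, and of those with the same library number at -0.11 to 0.06. In groups of 2 libraries the deviations mirror each other, so these values are not independent. They cannot show whether the libraries were paired. With a replicate block the medians were -0.09, -0.04 and 0.12 for Hoxa, Wnt6 and Hmx1, and with a block by the library number -0.13, -0.02 and 0.15, and 0 members were called in each.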
